A study of Mus musculus with 44 samples.

Results

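The Reg family lectins were followed as 7 genes named in advance: Reg1, Reg2, Reg3a, Reg3b, Reg3d, Reg3g and Reg4. They were 7 of the 31484 genes with a paired transcript. For each gene the estimated counts of all its transcripts were summed in each library. RNA came from biopsies of the gastric corpus mucosa, the acid-secreting part of the stomach, of female mice on a BalbC background that were 13 months old. KO mice lacked the beta subunit of the H+/K+ATPase, the proton pump of the parietal cell, in the whole body, and were compared with WT mice. Each genotype received either the gastrin receptor antagonist netazepide (NTZ, also called YF) or its vehicle polyethylene glycol (PEG). There were 13 KO/PEG and 11 KO/NTZ libraries beside 11 WT/PEG and 9 WT/NTZ libraries, and each was used as 1 sample. Single libraries are named as in the labels, by genotype and animal number (KO_46). The KO is constitutive, so pump loss, hypoacidity and high gastrin are present together in both KO groups.

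Reg proteins are small secreted C-type lectins. Reg1 is a mitogen of gastric mucosal cells and a known target of gastrin. Reg3b and Reg3g are antibacterial lectins of the gut epithelium, where they are produced on signals from microbes and from cytokines that act through STAT3. Reg3a and Reg3d are their less studied mouse relatives, Reg2 is best known from the pancreas, and Reg4 from intestinal endocrine and goblet cells.

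Depth ranged from 6065084 to 21945124 estimated counts, so that 3 counts, taken as the smallest readable signal, came to 0.137 to 0.495 CPM before normalisation. CPM is a count divided by the total of its library and put on a scale that all libraries share. Levels below are CPM after TMM normalisation, a scaling for library composition, unless stated. Differences were tested with edgeR over 14901 genes with a Benjamini-Hochberg adjusted p-value threshold of 0.05, and log2 fold changes are given ± their standard error (SE). The targeted gene Atp4b was between 2136 and 5735 CPM in the WT libraries and between 2.28 and 40.6 CPM in the KO libraries, without overlap. The share of mitochondrial counts, used as a sign of RNA quality, was lower in KO mice, with a median of 4.83% under PEG and 3.78% under NTZ, than in WT mice, with 9.53% and 9.38%. Between the genotypes, RNA quality and cell make-up cannot be told apart in this share. Summed parietal cell markers, Atp4b among them, also had a lower median in KO/PEG, 3797 CPM, than in WT/PEG, 12353.5 CPM. KO_46 of KO/PEG stood apart from its group with a mitochondrial share of 14.4%. Squamous forestomach markers, which do not belong in the corpus, summed to at most 507 CPM in WT/PEG, 4163 CPM in WT/NTZ, 745 CPM in KO/PEG and 761 CPM in KO/NTZ. The labels do not say that every library came from a separate mouse. The study counts fewer KO/PEG mice than there are KO/PEG libraries, although the animal numbers of these libraries all differ. The KO/PEG libraries therefore cannot all be separate KO/PEG mice as the study counts them, and the sources used here do not resolve this. Each library was still treated as independent. The p-values thus measure the spread between these libraries and may be too small for the spread between mice.

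Of the 7 genes, 6 lie within 98.2 kb on chromosome 6 (chr6:78370657-78468872, GRCm38), in the order Reg3b, Reg3d, Reg3a, Reg2, Reg1 and Reg3g. Reg4 lies apart, on chromosome 3 (chr3:98222156-98236748). Reg3b and Reg3g stand at opposite ends of the cluster and on opposite strands. The upstream sequences of the 3 genes that were measurable are shown, because these genes moved together between the groups. Each run covers the bases from 180 to 20 before the RefSeq transcription start (GRCm38.p6), written 5′ to 3′ on the strand of the gene. Capitals mark matches to the STAT motif TTCNNNGAA or the CDX motif TTTATNG, searched on both strands.
Reg3b, chr6:78370705-78370865, plus strand: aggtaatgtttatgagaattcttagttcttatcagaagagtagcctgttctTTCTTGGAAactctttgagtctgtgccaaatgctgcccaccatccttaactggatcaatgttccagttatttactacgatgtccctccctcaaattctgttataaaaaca
Reg3g, chr6:78468894-78469054, minus strand: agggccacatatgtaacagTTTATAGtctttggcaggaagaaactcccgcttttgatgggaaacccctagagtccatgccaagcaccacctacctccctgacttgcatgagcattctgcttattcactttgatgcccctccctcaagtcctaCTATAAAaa
Reg1, chr6:78425803-78425963, plus strand: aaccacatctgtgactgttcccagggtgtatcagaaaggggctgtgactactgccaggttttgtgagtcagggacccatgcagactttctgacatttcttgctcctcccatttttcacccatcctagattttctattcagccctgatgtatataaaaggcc

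Reg3b held 1 STAT match, TTCTTGGAA. Reg3g held 2 CDX matches, 161 and 28 bases before the start, and the nearer one lies where a TATA box is usually found. Neither motif was in the window of Reg1. Over the full 250 bases before the start, 7.02% of 32851 RefSeq promoters held the STAT motif and 9.81% the CDX motif, and among the other members only Reg3d held a match, a STAT motif, TTCCCAGAA, 238 bases before the start. Of the 3 genes printed, Reg3b and Reg3g were the most alike in these 250 bases, with 70.0% of 247 aligned bases identical, against 60.5% of 223 between Reg3b and Reg1. Reg3g was closer still to Reg3a, a member that was hardly detected, with 71.5% of 193 aligned bases identical. A match is a sequence feature only. The window of Reg1 precedes the proximal of its annotated starts, and the distal start lies 3212 bases further upstream.

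Only Reg1, Reg3b and Reg3g passed the filter on low counts. Reg3b and Reg3g passed through the KO groups, where they are high. The other 4 members were at or near the limit of detection in every group. Reg2 had 11 counts in all over the WT/PEG libraries, 3 over WT/NTZ, 17 over KO/PEG and 10 over KO/NTZ, and no more than 4 in a library. Each of these counts was assigned to 1 of its annotated transcripts, in which 23.2% of the words of 31 bases also occur in other genes, while the other transcript was at 0 in all 44 libraries. Reg3a had 2, 0, 7 and 1 counts over the same groups, Reg3d 0, 1, 3 and 0, and Reg4 1, 0, 3 and 3. Among the 16 permutation tests of these 4 genes, over 4 comparisons of log2 CPM, the smallest p was 0.0420, for Reg3a between KO/NTZ and KO/PEG, and its adjusted p was 0.673. At this depth a difference in these genes was not detectable.

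**Figure D1:**
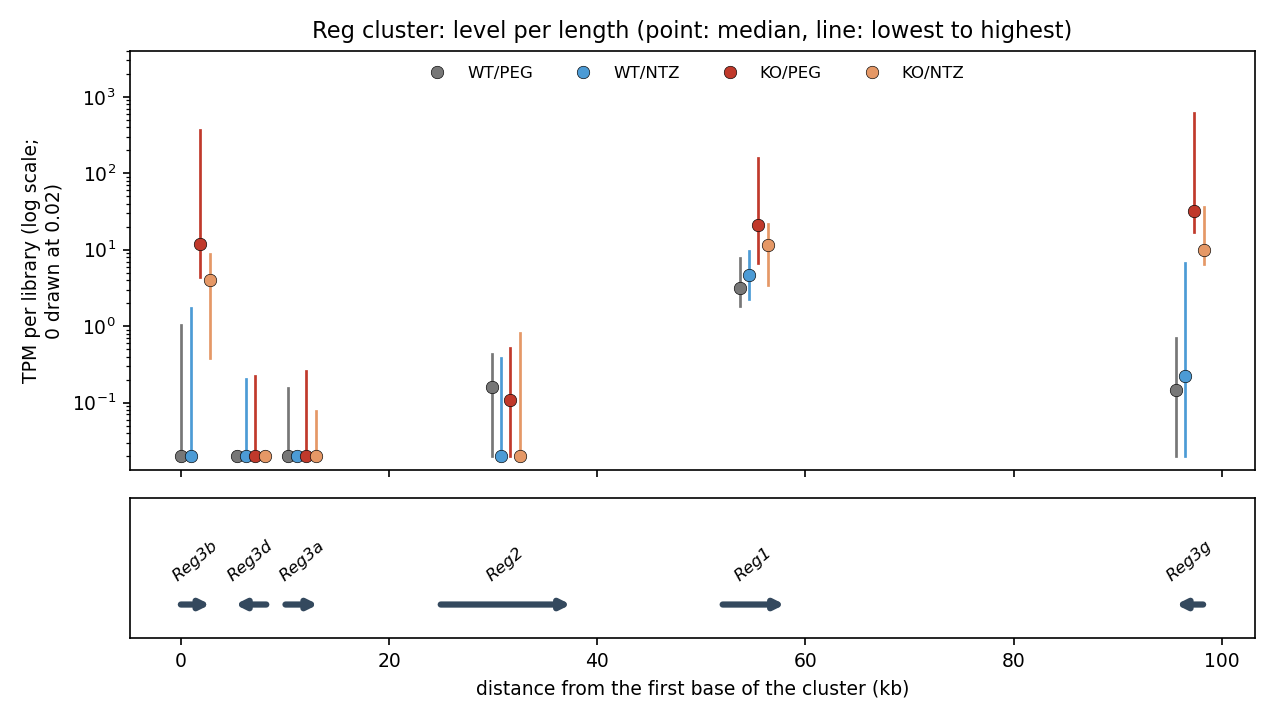
Level per length (TPM, log scale) of the 6 Reg genes of the chromosome 6 cluster, plotted at each gene's distance in kb from the first base of the cluster. Points are medians and lines run from the lowest to the highest library of each group, and arrows below show the genes and their strands. Reg3b, Reg1 and Reg3g were higher in KO/PEG than in WT/PEG libraries, while Reg3d, Reg3a and Reg2 between them stayed under 1 TPM.

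Per length, the 3 measurable genes had a different order in the genotypes. In TPM, which scales each count by transcript length and by library, Reg1 was the highest in all 11 WT/PEG and all 9 WT/NTZ libraries, with a median of 3.12 TPM in WT/PEG and 4.73 TPM in WT/NTZ. In KO/PEG the medians were 31.98 TPM for Reg3g, 21.3 TPM for Reg1 and 12.0 TPM for Reg3b. Reg3g was above Reg3b in all 13 KO/PEG libraries and above Reg1 in 12, and Reg3b was below Reg1 in 11. The ranges of the 3 genes overlapped across KO/PEG libraries, so the order held mainly within a library. In KO/NTZ the medians were 9.78 TPM for Reg3g, 11.6 TPM for Reg1 and 4.04 TPM for Reg3b, and Reg3g was above Reg1 in 8 of 11 libraries.

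KO/PEG was compared with WT/PEG to show what loss of the pump does to the family under vehicle. All 3 measurable members rose in KO/PEG, and in each of them every KO/PEG library was above every WT/PEG library. Such a full separation upwards was found for 5.44% of the genes tested, and 37.5% of the genes tested were called higher in KO/PEG. Reg3b and Reg3g passed the filter on low counts only through the KO groups, so a rise in them was partly set by that filter. The count of 3 is therefore no support for a rise of the family, and the other members were not tested in this fit.

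Reg1 had a lowest, median and highest level of 1.45, 2.38 and 5.16 CPM in WT/PEG and 5.56, 10.4 and 64.8 CPM in KO/PEG. The groups did not overlap, but the lowest KO/PEG library was close to the highest WT/PEG library. The log2 fold change was 2.77 ± 0.36 (SE, adjusted p = 1.09e-08, edgeR).

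Reg3g, the member with the highest median TPM in KO/PEG, went from 0, 0.107 and 0.615 CPM in WT/PEG to 10.2, 21.7 and 257 CPM in KO/PEG. No WT/PEG library held more than 11 counts of Reg3g, while the median of KO/PEG was 295 counts. The log2 fold change was 7.74 ± 0.75 (SE, adjusted p = 1.05e-11, edgeR).

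Reg3b had no count in 8 of 11 WT/PEG libraries and at most 0.559 CPM, while KO/PEG libraries were at 3.54, 7.18 and 152 CPM. The log2 fold change was 7.51 ± 0.84 (SE, adjusted p = 3.71e-10, edgeR). It rests on 16 counts over the whole of WT/PEG, of which 10 were in WT_128, so its size is uncertain while its direction is not affected. It was between 6.66 and 8.54 when single libraries were left out, and 5.74 with limma. All WT/PEG animal numbers are above 100, while KO/PEG libraries below 100 had a mean of 41.5 CPM of Reg3b against 8.14 CPM in the others. Among numbers of 100 or above, the log2 fold change was 6.02 for Reg3b, 2.21 for Reg1 and 6.50 for Reg3g, all still called (edgeR). In bulk RNA, more Reg-expressing cells and more Reg RNA per cell cannot be told apart.

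**Figure D2:**
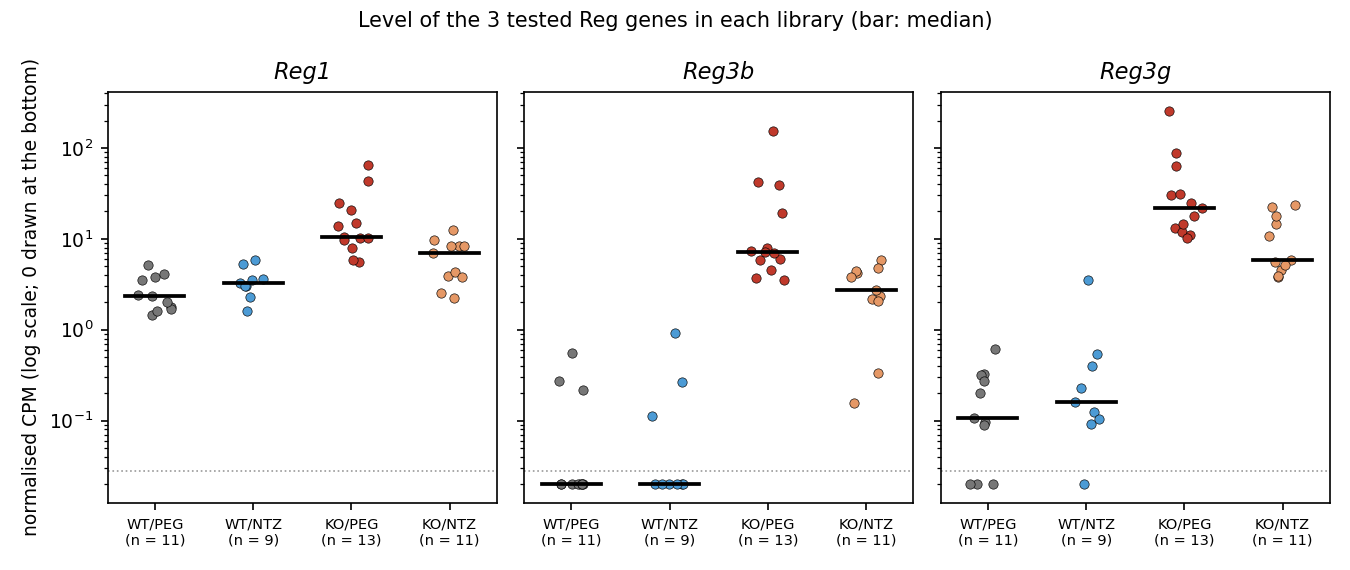
Normalised CPM (log scale) of Reg1, Reg3b and Reg3g in each of the 44 libraries, by group, with bars at the medians and libraries without a count drawn below the dotted line. All KO/PEG points lie above all WT/PEG points in each panel, KO/NTZ points lie lower than KO/PEG points with overlap, and 1 WT/NTZ point of Reg3g at 3.52 CPM stands above its group.

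KO/PEG libraries differed widely among themselves. KO_46 was the highest for all 3 genes, at 64.8 CPM of Reg1, 152 CPM of Reg3b and 257 CPM of Reg3g. It held 26.7% of the summed CPM of Reg1 in its group, 49.6% of that of Reg3b and 43.2% of that of Reg3g. KO_45 and KO_52 followed for Reg3b, at 42.3 and 39.4 CPM, and for Reg3g, at 87.4 and 63.5 CPM. Without KO_46 the mean of KO/PEG was 14.8 ± 10.6 CPM for Reg1, 12.8 ± 13.7 CPM for Reg3b and 28.2 ± 23.8 CPM for Reg3g (SD, n = 12), and all 3 genes were still called higher than in WT/PEG. In KO_46 the markers of lymphoid and type 3 immune cells summed to 87.7 CPM, the highest of its group, where the median was 33.9 CPM. KO_45 and KO_52, which followed it in Reg3b and Reg3g, were below that median, at 29.5 and 30.2 CPM. KO_109 of KO/PEG had an immune sum of 77.5 CPM with 5.92 CPM of Reg1, 3.73 CPM of Reg3b and 24.6 CPM of Reg3g. The gastrin axis genes of KO_46 summed to 5227 CPM, the lowest of the group, against a median of 13944 CPM. The median of this sum was 13141 CPM in KO/NTZ, so it hardly changed under the antagonist and is no measure of gastrin signalling. The part of immune cells, of RNA quality or of the cut of the biopsy in the Reg levels of KO_46 was not tested.

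KO/NTZ was compared with KO/PEG to show what blocking the gastrin receptor does in mice without the pump. All 3 genes fell, by 1.52 ± 0.33 on the log2 scale for Reg1 (SE, adjusted p = 0.00378), by 2.98 ± 0.58 for Reg3b (adjusted p = 0.00107) and by 2.12 ± 0.50 for Reg3g (adjusted p = 0.00649, all edgeR). Only 2.6% of the genes tested were called lower in this comparison. The KO/PEG libraries are those of the comparison with WT/PEG above, so both differences share them.

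Reg3b was at 0.155, 2.74 and 5.84 CPM in KO/NTZ against 3.54, 7.18 and 152 CPM in KO/PEG. All 11 KO/NTZ libraries were below the median of KO/PEG, which held for 2.97% of the genes tested, and 6 were below every KO/PEG library. The lowest KO/NTZ libraries were KO_110, with 0.155 CPM, and KO_24, with 0.332 CPM.

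Reg3g was at 3.76, 5.82 and 23.8 CPM in KO/NTZ against 10.2, 21.7 and 257 CPM in KO/PEG, and 6 of 11 libraries were below every KO/PEG library. KO_23 and KO_30, at 23.8 and 22.4 CPM, were above the KO/PEG median. Reg1 was at 2.24, 6.93 and 12.7 CPM in KO/NTZ against 5.56, 10.4 and 64.8 CPM in KO/PEG, with 5 of 11 libraries below every KO/PEG library and 1, KO_51, above the KO/PEG median. The KO groups overlapped in all 3 genes.

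Part of the size of these differences came with KO_46. Without it the log2 fold change was -1.18 for Reg1 (adjusted p = 0.0123), -2.10 for Reg3b (adjusted p = 0.00754) and -1.41 for Reg3g (adjusted p = 0.0370, all edgeR), and all 3 were still called. With the mitochondrial share of each library as a covariate the values were -1.27, -2.16 and -1.52, with adjusted p-values of 0.00907, 0.00657 and 0.0470. Among KO mice with animal numbers below 100, the only side of that number with several libraries in both groups, they were -1.90, -3.67 and -2.79, with adjusted p-values of 0.0262, 0.00437 and 0.0118. What a high or low animal number stands for is not given in the sources used here.

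**Figure D3:**
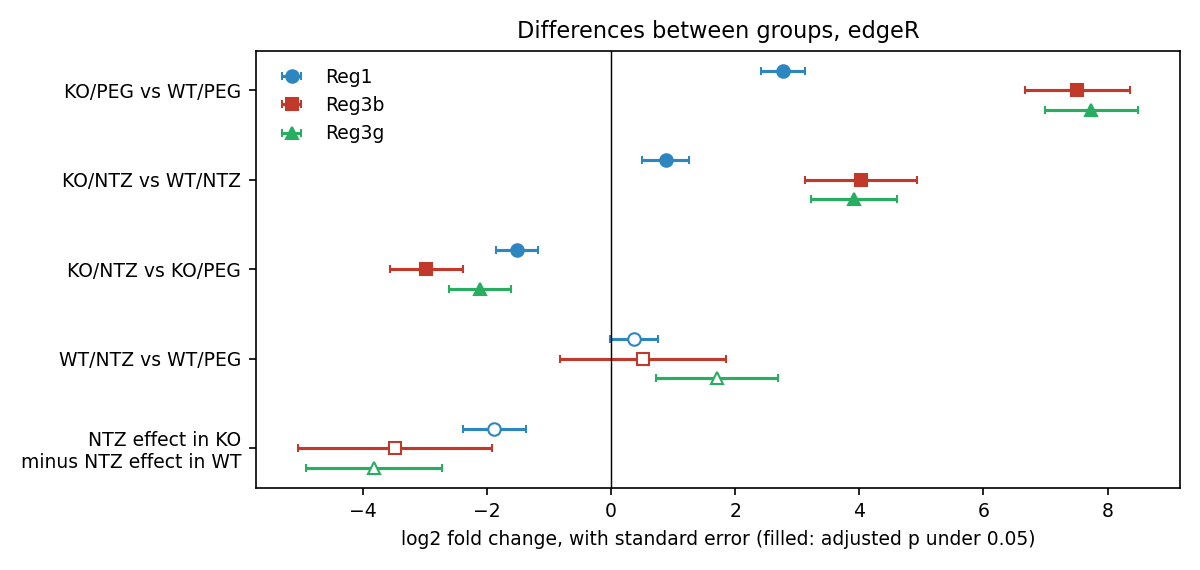
Log2 fold changes with standard errors of Reg1, Reg3b and Reg3g in the 4 pairwise comparisons and in the difference between the NTZ effects of the genotypes. Filled symbols passed the adjusted threshold of 0.05 in edgeR, which was the case in the genotype comparisons and for NTZ in KO mice, and open symbols did not.

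NTZ in WT mice was examined in WT/NTZ against WT/PEG, where 1.03% of the genes tested were called. None of the 3 members was called by edgeR, DESeq2 or limma. At an unadjusted p under 0.05 the count was 0 in edgeR and limma and 1 in DESeq2. Reg1 was at 1.61, 3.26 and 5.90 CPM in WT/NTZ, a log2 fold change of 0.37 ± 0.39 from WT/PEG (SE, adjusted p = 0.933, edgeR). The groups overlapped almost fully. Reg3b was at 0, 0 and 0.911 CPM (0.51 ± 1.34, adjusted p = 0.965), and Reg3g at 0, 0.160 and 3.52 CPM (1.70 ± 0.99, adjusted p = 0.794). In both the highest value was that of WT_118, which held 15 of the 18 counts of Reg3b and 58 of the 76 counts of Reg3g in the group. Without WT_118 the log2 fold change was -1.47 for Reg3b and 0.08 for Reg3g, neither of them called. WT_118 also had the highest sum of lymphoid and type 3 immune markers in its group, 68.1 CPM against a median of 32.9 CPM, and the lowest sum of chief cell markers, 75094 CPM against a median of 183454 CPM. Their part in its Reg levels was not tested.

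The fall under NTZ in KO mice was set against the change in WT mice in the same fit. The difference between the NTZ effects was -1.88 ± 0.51 for Reg1 (SE, adjusted p = 0.0553), -3.49 ± 1.56 for Reg3b (adjusted p = 0.353) and -3.82 ± 1.09 for Reg3g (adjusted p = 0.0718, all edgeR). None passed the threshold, although all 3 had an unadjusted p under 0.05, and 0.96% of the genes tested were called. DESeq2 called 2 of them, Reg1 and Reg3g, and limma 0. For Reg3b and Reg3g the estimate leans on WT_118, without which it was -1.53 and -2.21.

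KO/NTZ was finally compared with WT/NTZ to show what remained of the genotype difference under the antagonist. Reg3g was still higher in all 11 KO/NTZ libraries than in any WT/NTZ library, as were 14.4% of the genes tested, with a log2 fold change of 3.92 ± 0.69 (SE, adjusted p = 3.87e-06, edgeR). Reg3b was above every WT/NTZ library in 9 of 11 (4.03 ± 0.91, adjusted p = 0.000151). Both genes passed the filter on low counts only through the KO groups. The lowest KO/NTZ libraries for Reg3b, KO_24 at 0.332 CPM and KO_110 at 0.155 CPM, lay within the WT/NTZ range. For KO_24 this was so only because of WT_118, since the next WT/NTZ library was at 0.269 CPM. Without WT_118 the log2 fold changes were larger, 5.53 for Reg3g and 5.99 for Reg3b. Reg1 was above every WT/NTZ library in 6 of 11, with a log2 fold change of 0.88 ± 0.38 (SE, adjusted p = 0.0349), in a comparison that called 35.6% of the genes tested as higher. The call of Reg1 was lost when WT_92, WT_98, WT_117, KO_23, KO_27, KO_30 or KO_51 was left out, with adjusted p-values of up to 0.0824. The order of the groups was thus KO/PEG, KO/NTZ, WT/NTZ and WT/PEG by the mean of each of the 3 genes, with the WT groups not separable from each other.

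Within the KO groups the 3 genes were compared library by library, as 6 correlations of log2 CPM with two-sided permutation tests. In KO/PEG Reg1 and Reg3b rose and fell together over the 13 libraries, with Pearson's r = 0.95 (permutation p = 1e-05, adjusted 6.0e-05) and Spearman's rho = 0.86 (permutation p = 0.00038, adjusted 0.00228). The first of these is the smallest p that 100000 permutations can give. Without KO_46 and KO_52, the farthest from the median of Reg1, r was 0.87 (permutation p = 0.00022, adjusted 0.00132). Reg3b and Reg3g had r = 0.91 (permutation p = 0.00032, adjusted 0.00096) and rho = 0.68 (permutation p = 0.0122, adjusted 0.0243), and r = 0.70 without KO_45 and KO_46 (permutation p = 0.0187, adjusted 0.0562). Reg1 and Reg3g had r = 0.77 (permutation p = 0.00339, adjusted 0.00508) but rho = 0.48 (permutation p = 0.0974, adjusted 0.117). Without KO_46 and KO_52 their r was 0.40 (permutation p = 0.230, adjusted 0.275), so that this relation rests on those libraries.

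In KO/NTZ, with 11 libraries, Reg1 and Reg3b had r = 0.80 (permutation p = 0.00184, adjusted 0.00368) and rho = 0.79 (permutation p = 0.0059, adjusted 0.0177), but r was 0.51 without KO_24 and KO_110 (permutation p = 0.157, adjusted 0.235), so that this relation rests on those libraries too. Reg3b and Reg3g had r = 0.53 (permutation p = 0.0966, adjusted 0.116) and rho = 0.61 (permutation p = 0.0522, adjusted 0.0783), and r = 0.73 without the same libraries (permutation p = 0.0324, adjusted 0.0648). Reg1 and Reg3g had r = 0.33 (permutation p = 0.310, adjusted 0.310) and rho = 0.30 (permutation p = 0.372, adjusted 0.372), and r = 0.17 without them (permutation p = 0.653, adjusted 0.653). The libraries share their mitochondrial share and depth across all genes, and the part of these in the correlations was not tested.

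**Figure D4:**
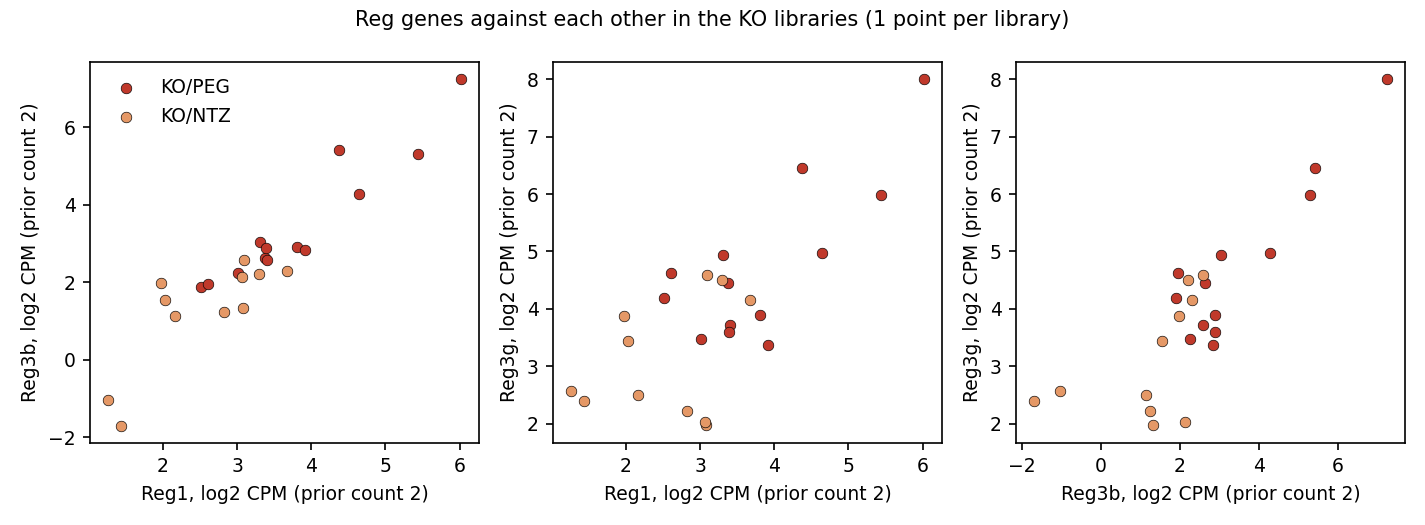
Log2 CPM (prior count 2) of each pair of Reg1, Reg3b and Reg3g in the 13 KO/PEG and 11 KO/NTZ libraries, with 1 point per library. Reg1 and Reg3b lie close to a line in KO/PEG (r = 0.95), Reg1 and Reg3g scatter (r = 0.77), and KO_46 is the uppermost point of each panel.

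The main transcripts of Reg3b and Reg3g, which held nearly all counts of these genes, were identical at 74.4% of 739 aligned bases and shared 5 words of 31 bases, the word length of kallisto, and none of the read length of 75 bases. The main transcript of Reg1 shared no word of 31 bases with another gene.

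Reg1 has 3 annotated transcripts that hold the same coding sequence and differ in the first exon, and 1 of them has 7 exons instead of 6. The proximal transcript begins at chr6:78425983 with an exon of 25 bases, and the main one, here called distal, begins 3212 bases upstream with an exon of 21 bases. Most of the rise in KO/PEG was assigned to the distal transcript, whose median was 1.26 CPM in WT/PEG, 1.84 CPM in WT/NTZ, 8.95 CPM in KO/PEG and 2.82 CPM in KO/NTZ. The proximal transcript was at 0 in 6 of 13 KO/PEG libraries and reached 13.3 CPM in another. The remaining transcript, which also starts upstream, had a median of 0.624 CPM in WT/PEG and 1.13 CPM in KO/PEG. The split is uncertain, since 21 of the 736 words of 31 bases of the distal transcript and 0 of the 739 of the proximal one are found in no other Reg1 transcript. Tested alone in a fit of 1 transcript per gene, the distal transcript was higher in KO/PEG than in WT/PEG (3.52 ± 0.75, SE, adjusted p = 0.000123, edgeR), but its log2 fold change of -2.03 ± 0.69 under NTZ in KO mice was not called (SE, adjusted p = 0.108, edgeR).

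Extl3, reported as a receptor of Reg proteins, was lower in KO/PEG than in WT/PEG, where the 3 lectins were higher. It was between 51.7 and 65.5 CPM in WT/PEG and between 29.7 and 39.6 CPM in KO/PEG. Its log2 fold change was -0.67 ± 0.07 (SE, adjusted p = 3.82e-11, edgeR), among 37.2% of the genes tested that were called lower. Under NTZ in KO mice its log2 fold change had the same sign as those of the lectins, -0.19 ± 0.07, but did not pass (SE, adjusted p = 0.0875, edgeR), with a mean of 31.4 ± 4.95 CPM (SD, n = 11).

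Of the 14 genes of the gastrin axis 12 were tested, with 9 higher and 2 lower in KO/PEG than in WT/PEG and a median log2 fold change of 1.33, against 0.00 over all genes tested, of which 37.5% were called higher and 37.2% lower. Clu, a secreted chaperone and metaplasia marker, rose by 3.45 ± 0.20, and Chga, the chromogranin of endocrine cells, by 1.63 ± 0.16 (SE, edgeR). Under NTZ in KO mice 5 of the 12 were lower and 1 higher, with a median of -0.16, while 2.97% of all genes tested were called higher and 2.6% lower, and the median over all genes was -0.01. The 5 are genes of the histamine-producing ECL cell: Hdc, which makes histamine, changed by -1.97 ± 0.22, Chgb by -1.52 ± 0.17, Chga by -1.22 ± 0.15 and Cckbr, the gastrin receptor itself, by -0.98 ± 0.21 (SE, adjusted p between 1.03e-07 and 0.00234, edgeR). Sst, somatostatin, rose by 0.89 ± 0.27 (SE, adjusted p = 0.0368, edgeR). Clu was not called under NTZ (0.12, adjusted p = 0.693, edgeR). The study had already reported Hdc, Chga, Chgb, Cckbr and the ECL cell marker Slc18a2 as lowered by NTZ in these KO mice, and Sst as raised. It had also reported Clu and Chga as higher in KO/PEG. The list was chosen with such results known, so its counts are no independent support.

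Of the 25 genes of IL-22, IL-6 and STAT3 signalling 18 were tested, with 10 higher and 5 lower in KO/PEG, where 37.5% of all genes tested were called higher and 37.2% lower, and with a median log2 fold change of 0.40. Socs3, the feedback inhibitor induced by STAT3, rose by 1.47 ± 0.20 and Il10rb, a subunit of the IL-22 receptor, by 0.47 ± 0.06, while Il6st, the shared receptor of IL-6 cytokines, fell by 0.67 ± 0.09 and the kinase gene Jak2 fell by 0.92 ± 0.14 on the log2 scale (SE, edgeR). Among the cytokine genes of the list, Tnf (3.38 ± 0.51, mean 1.14 CPM in KO/PEG), Il17f (1.64 ± 0.43, 0.726 CPM) and Lif (1.45 ± 0.25, 2.72 CPM) were called higher in KO/PEG, and Il1b, at 4.52 CPM, was not called (log2 fold changes ± SE, edgeR). The filter on low counts left out Il22, Il17a, Il6, Il11, Il23a and Osm, whose means in KO/PEG were 0.00407, 0.153, 0.124, 0.546, 0.0243 and 0.451 CPM. Under NTZ in KO mice 1 gene was higher, Il6ra (0.42 ± 0.12, adjusted p = 0.0267), and 1 lower, Il1b (-1.06 ± 0.32, adjusted p = 0.0372, both edgeR), and the median was -0.12. Il22ra1, the specific subunit of the IL-22 receptor, was at -1.66 ± 0.53 (SE, adjusted p = 0.0520, edgeR) and Socs3 at -0.57 ± 0.19 (adjusted p = 0.0696).

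Markers of cells that can be a source of Reg genes, and of immune cells, were examined beside these results. Pancreatic acinar cells are known to express Reg1 and Reg2. Of 22 acinar markers 14 were tested, with 5 higher and 6 lower in KO/PEG than in WT/PEG, shares near those of all genes tested (37.5% higher and 37.2% lower). The elastase gene Cela1 (2.07 ± 0.22, mean 114 CPM in KO/PEG), Gp2 (4.17 ± 0.50) and Ptf1a (1.33 ± 0.22) were higher, and the colipase gene Clps was lower (-3.21 ± 0.42, log2 fold changes ± SE, edgeR). The other 8 markers, left out by the filter, had means of 0 to 0.382 CPM in WT/PEG and 0.0517 to 0.594 CPM in KO/PEG, among them Cpa1 (0 and 0.0691 CPM) and Prss2 (0.0807 and 0.295 CPM). The summed level of the 22, most of it from Clps, ranged from 19536 to 53410 CPM in WT/PEG, 15762 to 48679 CPM in WT/NTZ, 561 to 13883 CPM in KO/PEG and 919 to 7403 CPM in KO/NTZ. All 10 tested of 12 goblet and Paneth cell markers were higher in KO/PEG than in WT/PEG, among them Spink4 (5.08 ± 0.39), Clca1 (6.62 ± 0.61), Fcgbp (3.83 ± 0.44) and Itln1 (7.25 ± 0.90, log2 fold changes ± SE, edgeR). This compares with 37.5% of all genes tested. The sum of the 12 ranged from 254 to 607 CPM in WT/PEG, 331 to 957 CPM in WT/NTZ, 1486 to 10787 CPM in KO/PEG and 5031 to 15776 CPM in KO/NTZ. Its median was 10690 CPM in KO/NTZ and 4735 CPM in KO/PEG. The Paneth cell lysozyme gene Lyz1 was the 1 goblet and Paneth marker called under NTZ in KO mice, at -4.63 ± 1.07 (SE, edgeR). The intestinal transcription factor genes Cdx1 and Cdx2 had means of 0.0158 and 0.0416 CPM in KO/PEG. Of 8 tested lymphoid and type 3 immune markers 3 were higher in KO/PEG than in WT/PEG, the same share as the 37.5% of all genes tested. Under NTZ in KO mice 0 passed in edgeR, with 3 at an unadjusted p under 0.05 and a median of -0.57. Their summed ranges were 24.2 to 43.1 CPM in WT/PEG, 26.04 to 68.1 CPM in WT/NTZ, 21.6 to 87.7 CPM in KO/PEG and 20.5 to 57.3 CPM in KO/NTZ. Of 4 tested neutrophil markers 3 were higher in KO/PEG than in WT/PEG, against 37.5% of all genes tested, and under NTZ in KO mice 0 passed in edgeR, also at an unadjusted p under 0.05. The part of these cells in the Reg levels was not tested.

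The genes whose levels followed each member most closely were sought among all genes tested, by Pearson's r of log2 CPM over the 44 libraries after the group means were subtracted. For Reg1 these were Fermt2 (r = 0.68), Synpo2 (0.68), Samd4 (0.65), Bag2 (0.64) and Slc9a3 (0.64), and the values of Reg3b (0.77) and Reg3g (0.52) on the same measure stand beside them. For Reg3b they were Samd4 (0.61), Ccn4 (0.56), Mmd (0.56), Tm6sf1 (0.56) and Casp4 (0.55), with Reg3g at 0.77. For Reg3g they were Lrg1 (0.73), C4b (0.73), Tnfaip2 (0.69), Casp4 (0.68) and Cxcr5 (0.66). Reg1 and Reg3b were thus closer to each other than to any gene outside the family, as were Reg3b and Reg3g. Of the genes near Reg3g, Lrg1, which codes for a secreted acute-phase glycoprotein, rose from a mean of 2.08 CPM in WT/PEG to 26.02 CPM in KO/PEG (3.61 ± 0.46, SE, adjusted p = 8.09e-09, edgeR). It was at 11.8 CPM in KO/NTZ, a log2 fold change of -1.17 ± 0.40 from KO/PEG that did not pass (SE, adjusted p = 0.0751, edgeR). Casp4, an inflammatory caspase near both Reg3b and Reg3g, rose in KO/PEG (1.95 ± 0.27, SE, adjusted p = 3.83e-08, edgeR) and fell under NTZ in KO mice (-0.89 ± 0.26, SE, adjusted p = 0.0291, edgeR). Fermt2 and Synpo2, near Reg1, were lower in KO/PEG than in WT/PEG, by -1.40 and -1.46, so a like course within groups went with an opposite difference between the genotypes. The libraries share biopsy composition, depth and RNA quality, and a like pattern says nothing of a common cause.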

How the data were processed

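mRNA libraries of the gastric corpus mucosa were sequenced by the authors with stranded single reads. Per the labels and the study's methods, the authors quantified GRCm38 transcripts with kallisto 0.42.4 and deposited estimated counts, not normalised, for 94080 transcripts per library. No library was left out and groups follow the labels.

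Here, 92372 transcripts were paired with genes through GENCODE vM21, summed per gene and rounded. The 1708 unpaired transcripts held between 0.329% and 1.30% of the counts of a library. Genes with low counts were removed with filterByExpr (minimum count 10, total 15), and all 44 libraries were fitted in edgeR 4.0.16 (R 4.3.3) with TMM scaling, a mean per group and the quasi-likelihood test. The test of the study, Sleuth, needs quantification output that is not used here. Benjamini-Hochberg adjustment ran over all genes tested. Members left out by the filter were compared by two-sided permutation tests (exact where a group had fewer than 10 libraries). TPM was computed from the deposited estimated counts and GENCODE transcript lengths. Promoters were from RefSeq (GRCm38.p6), where all 7 members matched. Counting floors cover counting error only.

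The members and gene lists were chosen with earlier results of these data known. The genes named were the 7 members, Atp4b, Extl3, up to 4 genes with the smallest p of each list, and the 5 genes most like each tested member. Some further list genes (the cytokine genes, Cpa1, Prss2, Cdx1 and Cdx2, and Socs3, Sst and Clu under NTZ) were named after their values were seen.

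Alternatives were RLE scaling, DESeq2 1.42.0, limma-trend (3.58.1), no filter, only the groups compared, the single transcript with the most counts, the WT/PEG pair of animal number 172 summed, the libraries numbered 110 left out, animal numbers on one side of 100, the mitochondrial share as a covariate, and each library left out in turn. The pair of number 172 differed by a chi-square of 18.35 per degree of freedom, rank 11 of 55 WT/PEG pairs. This value cannot tell samples of the same mouse from samples of separate mice. The pair was kept as 2 samples, as labelled, and its sum was run as an alternative. The study gives 9 KO/PEG mice at its end, fewer than the 13 libraries, all of which were used as independent samples. In simulated data for KO/PEG against WT/PEG with 14901 genes, edgeR called 169 genes, 9 of them wrongly, and found 94% of the genes given a 4-fold change. Only a small part of the genes was given a change there, and the rest had a common mean in all groups. In the real comparison 37.5% were called higher and 37.2% lower, and Reg3b and Reg3g were hardly detected in WT/PEG. The simulated rates therefore do not carry over to it.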

Additional observations from a re-analysis of the deposited data

Results flagged for a closer look

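In WT/NTZ, a group of 9 libraries, WT_118 was far from the others for both antibacterial members. Its Reg3g level of 3.52 CPM lay above the next library by a gap of 0.846 of the whole range of the group, and its Reg3b level of 0.911 CPM by a gap of 0.705, where Dixon's 95% critical value for 9 libraries is 0.493. Reg1 in the same library, 5.34 CPM, was second highest and not far from the others. The critical value assumes normally distributed levels, while most WT/NTZ libraries hold few or no counts of both flagged genes. How often chance would flag such a group is therefore not known. The rule was applied only to WT/NTZ, since the critical values used here did not reach the sizes of the other groups. KO/PEG, where KO_46 was the highest for Reg1, Reg3b and Reg3g, was therefore not examined this way, nor were the members near the limit of detection. The cause of the levels of WT_118 was not tested.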

How the results depend on the processing

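The calls of Reg1, Reg3b and Reg3g in KO/PEG against WT/PEG, and their direction in the genotype comparisons and under NTZ in KO mice, held in every alternative run. The exceptions among the calls were as follows, and where no cause is named it was not tested. With the single transcript with the most counts, Reg1 lost its call for KO/NTZ against KO/PEG (-2.03, adjusted p = 0.108) and for KO/NTZ against WT/NTZ (0.96, adjusted p = 0.275), which left 2 called members in each. With animals numbered below 100, fewer libraries were fitted and Reg1 was not called for KO/NTZ against WT/NTZ (0.96, adjusted p = 0.106). With animals numbered 100 or above, Reg3g was called higher in WT/NTZ than in WT/PEG (2.53, adjusted p = 0.0383), so 1 member was called there instead of 0. That side held 4 WT/NTZ libraries, with a median of 0.385 CPM of Reg3g and a highest level of 3.52 CPM, in WT_118. It was not fitted without WT_118, so this call cannot be told apart from that library. For the difference between the NTZ effects, DESeq2 called 2 members and the mitochondrial covariate 1 (Reg1, adjusted p = 0.0372) instead of 0, and leaving out single libraries gave between 0 and 1. Leaving out single libraries gave between 2 and 3 called members for KO/NTZ against WT/NTZ and 3 throughout in KO/PEG against WT/PEG and KO/NTZ against KO/PEG. Reg3b in WT/NTZ against WT/PEG ranged from -1.47 to 1.54, and was negative without WT_118. It was -1.44 when KO_46 and WT_118 were left out together, an alternative chosen after seeing the data. Without the 2 libraries farthest from the median of the first gene, r fell to 0.40 for Reg1 and Reg3g and 0.70 for Reg3b and Reg3g in KO/PEG, and to 0.51 for Reg1 and Reg3b in KO/NTZ, each past the adjusted threshold before and not after. Only the groups compared could not be fitted for Reg3b and Reg3g in the WT mice, where the filter left them out, and neither it nor one side of the animal numbers applies to the difference between NTZ effects. No paired analysis was possible because the groups compared share at most 1 animal number, 110. The WT levels of Reg3b and Reg3g rest on few counts, so the sizes of their genotype differences are limited by depth.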

Other observations

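Marker lists of other cells of the biopsy were read for the same libraries. Under NTZ in KO mice 4 of 8 muscle markers were called higher (median log2 fold change 0.75, edgeR), 4 of 12 endocrine markers lower (median -0.05), 1 of 7 parietal cell markers lower (median -0.36), 1 of 7 tested enterocyte markers higher (median -0.12), and 0 of the 5 tested chief cell markers (median -0.29, 1 at an unadjusted p under 0.05). The squamous forestomach markers differed most between WT groups, with a median sum of 786 CPM in WT/NTZ against 3.07 CPM in WT/PEG, though 0 of 10 passed in edgeR, with 8 at an unadjusted p under 0.05.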
